A study of Mus musculus with 8 samples.

Results

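S100a8 and S100a9 encode the subunits of calprotectin and are 2 of the 31053 genes in the tables. They were chosen by name, because earlier results of these data showed large numbers of their transcripts after colitis, and the question was which cells held those transcripts and which cells only carried free RNA. The cells came from the lamina propria of the colon, the layer under the gut epithelium, of C57BL/6 mice aged 10 to 12 weeks that were kept free of specific pathogens. The mice were wildtype or carried a changed RORγt, the transcription factor of Th17 cells. The series title names the allele RORgtS182A, whereas the sample titles write S203AKI, so these mice are called the mutants here. Untreated mice of both genotypes drank water for 10 days. Those of the DSS groups drank 2% dextran sulfate sodium (DSS), a chemical that damages the epithelium and causes colitis, for 7 days and then water for 3 days. All mice were harvested on day 10. The lamina propria cells of every group went through enzyme digestion, a Percoll gradient and a magnetic kit that enriches CD4+ T cells, so any share of cells given here is the share left after enrichment. Each of the 4 groups has 2 libraries, numbered 1 and 2 only to name them, and the labels do not say how many mice a library holds.

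Calprotectin is a pair of small calcium-binding S100 proteins that fills the cytosol of neutrophils and is also made by some monocytes and by stressed squamous epithelium. Once released, it starves microbes by binding zinc and manganese, and it acts as an alarm signal through TLR4 and RAGE. Its protein in stool is a routine clinical measure of neutrophil infiltration of the gut.

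The genes lie next to each other on mouse chromosome 3 and are transcribed in opposite directions. In the GRCm38 gene models S100a8 (ENSMUSG00000056054) runs from 90668978 to 90670035 on the plus strand and S100a9 (ENSMUSG00000056071) from 90692632 to 90695721 on the minus strand. Each has up to 3 exons. The 22596 bases between them hold 0 annotated genes, and 0 other genes overlap either one, so their UMIs are not shared with an overlapping gene. The promoters are shown because the genes moved together in neutrophil-like barcodes and because motifs of myeloid factors can be compared between them. Both come from RefSeq on GRCm38.p6, read 5′ to 3′ on the gene's strand and span 250 bases before to 50 after the RefSeq start, with S100a8 at chr3:90668821-90669120 and S100a9 at chr3:90695672-90695971. Capitals mark matches on either strand to TTNNGNAA (a C/EBP-type sequence), GAGGAA (the PU.1 core) and TATAAA (the letters of a TATA box).
S100a8: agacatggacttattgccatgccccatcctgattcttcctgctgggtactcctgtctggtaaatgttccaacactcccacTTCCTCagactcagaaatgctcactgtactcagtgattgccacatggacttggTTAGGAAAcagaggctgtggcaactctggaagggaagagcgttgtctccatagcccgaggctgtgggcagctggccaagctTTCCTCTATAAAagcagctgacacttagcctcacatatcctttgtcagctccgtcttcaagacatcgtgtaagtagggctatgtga
S100a9: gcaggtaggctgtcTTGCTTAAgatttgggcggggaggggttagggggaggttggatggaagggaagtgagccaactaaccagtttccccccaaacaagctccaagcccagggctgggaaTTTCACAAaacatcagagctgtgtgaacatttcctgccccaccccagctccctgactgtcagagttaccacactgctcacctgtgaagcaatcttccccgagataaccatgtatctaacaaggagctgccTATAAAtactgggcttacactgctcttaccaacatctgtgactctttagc

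The S100a8 promoter held 1 match to TTNNGNAA, 2 to GAGGAA and 1 to TATAAA, the last directly after a GAGGAA match on the other strand. The S100a9 promoter held 2 matches to TTNNGNAA and 1 to TATAAA, and no GAGGAA lay in its window. TATAAA began 30 bases before the RefSeq start in S100a8 but at the start itself in S100a9. For that start, the match in S100a9 is not at the usual place of a TATA box. Annotated starts differ, however. In the gene models exon 1 of S100a8 runs from 90668978 to 90669102 and holds this TATAAA. For S100a9, 1 transcript begins at 90695711, downstream of the start used here. Among 32851 mouse promoters of the same length, 40.7% held TTNNGNAA, 28.3% GAGGAA and 13.6% TATAAA. A match is a match of letters and not a measured binding site.

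The 8 tables held 100673 barcodes, each taken as 1 cell or part of one, with 10563 to 16133 barcodes and 34497509 to 46960005 unique molecular identifiers (UMIs, counts of captured RNA molecules) per library. The labels state about 10000 enriched cells per library. T-cell-like barcodes made up 59.9% of all, and the others were fibroblast-like, macrophage-like, B-cell-like and further classes that the enrichment had left. The authors' list of kept cells names 27420 barcodes. In all 1176 barcode sequences occurred in more than 1 library, which touched 2362 barcodes (2.35%), among them 7 of the 214 neutrophil-like ones (3.27%). Untreated wildtype 2 weighed most on the gene-wide comparison of DSS with untreated libraries: 3860 genes were called with it and 238 without it.

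Both genes were far more abundant in the DSS libraries. Levels are UMIs of the gene scaled to a library total of 1000000 UMIs (CPM), which needs no scaling for gene length because each molecule is counted once at its 3′ end. S100a8 stood at 3.15 and 8.67 CPM in untreated wildtype 1 and 2, at 3.58 and 8.68 in untreated mutant 1 and 2, at 67.5 and 159 in DSS-treated wildtype 1 and 2, and at 143 and 267 in DSS-treated mutant 1 and 2. In the same order S100a9 stood at 5.23 and 12.0, at 3.54 and 9.84, at 121 and 231, and at 234 and 273 CPM. All 4 DSS libraries lay above all 4 untreated ones for both genes, and DSS-treated wildtype 1 was the lowest of the DSS libraries. The share of all genes whose libraries separated in this way was not counted. Across all genes tested, edgeR called 12.2% higher after DSS, which is another measure. The means were 6.02 ± 3.07 CPM (SD, n = 4) and 159 ± 82.3 (n = 4) for S100a8, a ratio of 26.4, and 7.66 ± 3.95 and 215 ± 65.3 for S100a9, a ratio of 28.02. These ratios are descriptions without a test, since the genes were chosen with this contrast known. In a whole library, fewer source cells and less RNA per cell cannot be told apart, and the classes of barcodes below separate the 2 quantities in part.

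**Figure D1:**
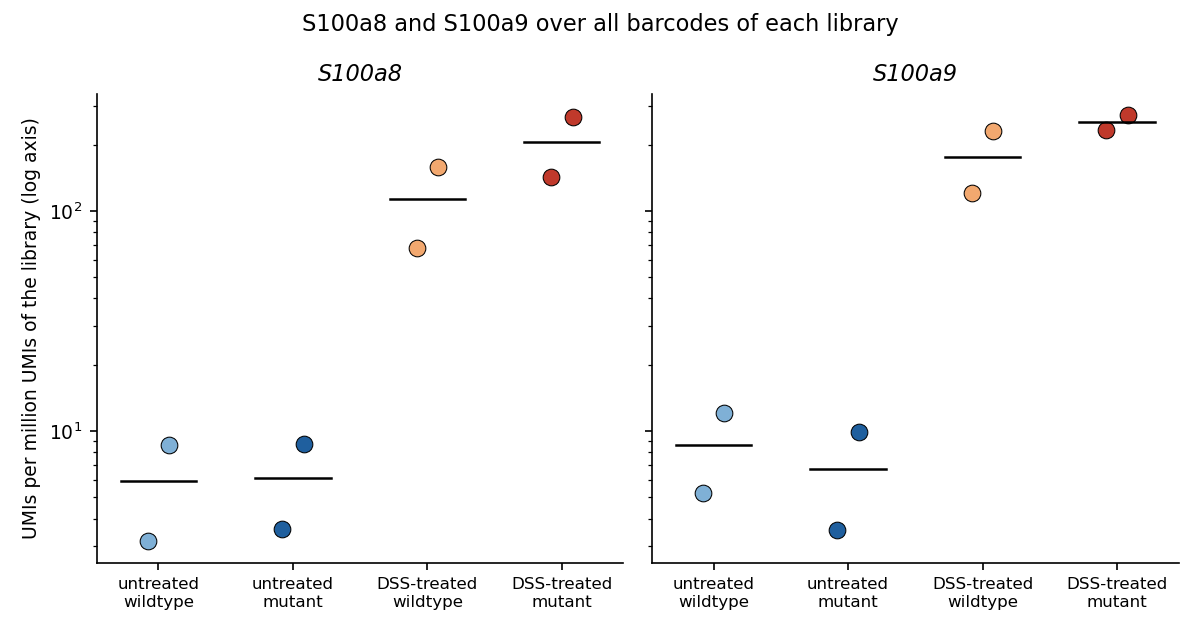
Level of S100a8 and S100a9 in each library over all barcodes, in CPM on a log axis, by group. The 4 DSS libraries lie between 67.5 and 273 CPM and the 4 untreated ones between 3.15 and 12.0.

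A single small cluster held most of these transcripts. It had 214 barcodes, 0.213% of all, and was named neutrophil-like from fixed markers, with Retnlg, Ngp, Wfdc21, Gm5483, Stfa2l1 and Hdc as its leading genes. S100a8 and S100a9 were used neither for the clustering nor for the name. The cluster contained 92.5% of all S100a8 UMIs (26886) and 94.6% of all S100a9 UMIs (36558), most of which came from the DSS libraries. By library its share of S100a8 was 91.7% to 95.8% after DSS, but 78.4% and 75.6% in untreated wildtype 1 and 2, 88.0% in untreated mutant 1 and 97.5% in untreated mutant 2. Its share of S100a9 was 93.1% to 95.9% after DSS and 85.8% to 97.6% in untreated libraries, lowest in wildtype 2. The 214 barcodes carried a median of 6 of the fixed neutrophil markers, 4 in untreated and 7 in DSS libraries, beside median depths of 1084 and 1793 UMIs. The part of depth in the differences between them was not tested.

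**Figure D2:**
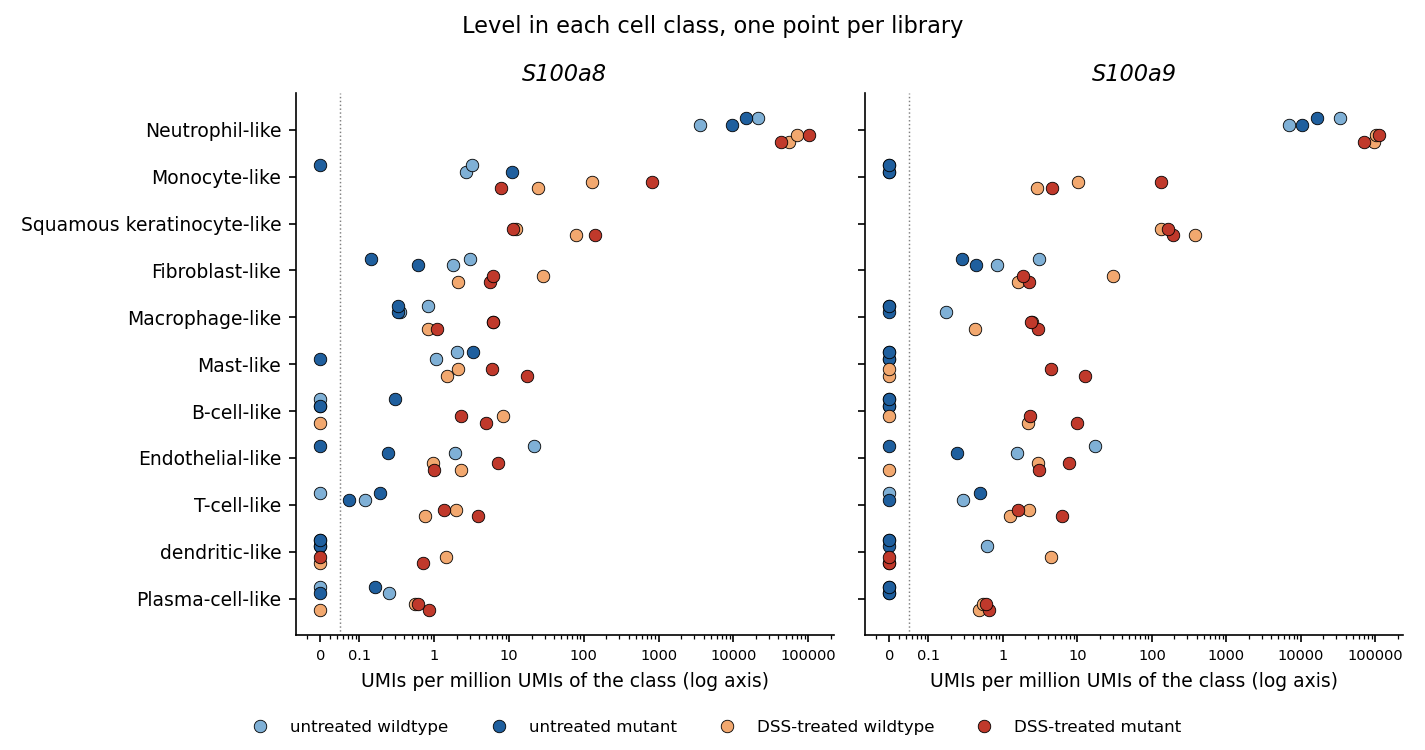
Level of S100a8 and S100a9 in each class of barcodes, in CPM of the class on a log axis, with 1 point per library that holds at least 10 such barcodes. Neutrophil-like barcodes lie at 3579 to 110511 CPM, and the T-cell-like ones at or below 6.24.

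The neutrophil-like cells differed between treatments in their number and, by more, in their calprotectin content. Untreated wildtype 1 and 2 held 18 and 12 such barcodes, untreated mutant 1 and 2 held 12 and 16, DSS-treated wildtype 1 and 2 held 24 and 32, and DSS-treated mutant 1 and 2 held 73 and 27. As a share of barcodes this was 0.119% ± 0.0201 (SD, n = 4) in untreated and 0.287% ± 0.111 (n = 4) in DSS libraries, a ratio of 2.42. Within these barcodes S100a8 reached 3579, 21109, 9682 and 14614 CPM in the untreated libraries and 55007, 69893, 42788 and 103931 CPM in the DSS libraries, in the order used above. S100a9 reached 6994, 33301, 10478 and 16585 CPM untreated and 96638, 103180, 71005 and 110511 CPM after DSS. The 2 sets of libraries did not overlap for either gene, but the share of all genes that did not overlap in these barcodes was not counted. The mean within neutrophil-like barcodes was 5.54 times as high after DSS for S100a8 and 5.66 times as high for S100a9, again without a test.

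Single neutrophil-like barcodes showed the same shift. In the median untreated barcode S100a8 made up 0.636% of its UMIs and S100a9 0.944%, and in the median DSS barcode 5.74% and 8.79%. By library the median share of S100a8 ran from 0.214% to 1.22% untreated and from 4.49% to 8.91% after DSS, and that of S100a9 from 0.510% to 1.91% and from 6.90% to 12.1%. The highest barcodes gave 19.0% of their UMIs to S100a8 and 18.6% to S100a9. At least 10 UMIs of both genes together were found in 182 barcodes, 40 of the 58 untreated and 142 of the 156 from DSS libraries, and 12 barcodes had 0. After thinning each barcode to 1000 UMIs, which left out shallower ones, 82.4% of 34 untreated and 96.2% of 132 DSS barcodes held S100a8. Detection was thus common in both sets, and the amount differed more.

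**Figure D3:**
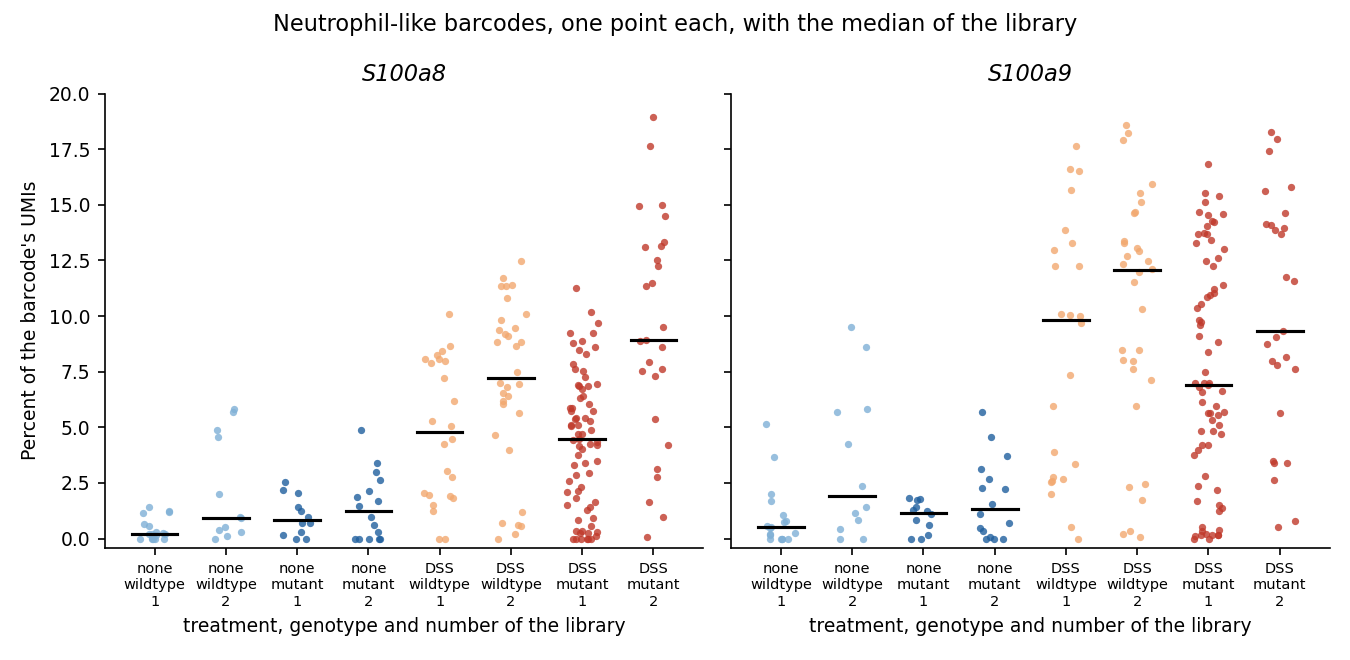
Share of each neutrophil-like barcode's UMIs that came from S100a8 and from S100a9, in percent, with 1 point per barcode and the median of each library. The library medians of S100a8 lie at 0.214% to 1.22% in untreated and at 4.49% to 8.91% in DSS libraries.

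Other genes of the neutrophil-like barcodes did not all follow the 2 subunits. Summed over the 4 libraries of each treatment, Retnlg, a resistin-like protein of mature neutrophils, stood at 404 CPM untreated and 19692 CPM after DSS. The iron-binding Lcn2 stood at 890 and 5933 CPM, and Wfdc21 at 107 and 3356. Ngp, a protein of secondary granules, had 0 UMIs untreated, which allow up to 35.6 CPM, and 3157 CPM after DSS. Other genes of the same barcodes went either way or were closer in level. Csf3r, the G-CSF receptor, stood at 593 and 643 CPM, G0s2 at 2208 and 2225, and Hdc, which makes histamine, at 2018 and 2047. The chemokine receptor Cxcr2 stood at 131 and 572 CPM, while the myeloid receptors Clec4d and Trem1 were lower after DSS, at 1982 and 1123 and at 914 and 611. The chemokine Cxcl2 was lower after DSS, at 23656 and 11795 CPM, and Tnf stood at 677 and 157. Among the factors known for myeloid S100 transcription, Cebpb stood at 2433 and 2430 CPM and Spi1, which encodes PU.1, at 499 and 527. Subunits of the NADPH oxidase, the enzyme to which calprotectin delivers arachidonic acid, showed no common direction, with Ncf1 at 641 and 543, Rac2 at 499 and 905 and Cybb at 249 and 168 CPM. These sums are descriptions of 58 and 156 barcodes.

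The subunits were linked from barcode to barcode within each DSS library. Over every neutrophil-like barcode of a library, the shares of S100a8 and S100a9 correlated at a Spearman rho of 0.948 in DSS-treated wildtype 1 (n = 24), 0.848 in wildtype 2 (n = 32), 0.905 in mutant 1 (n = 73) and 0.919 in mutant 2 (n = 27). In the untreated libraries, with 12 to 18 barcodes and few UMIs, rho ran from 0.435 to 0.928, and over their barcodes with 10 or more UMIs of both genes, 9 to 11 per library, from 0.0909 to 0.818. At these numbers of barcodes a link between the subunits was not seen in every untreated library. Barcodes of 1 library share its depth and its free RNA, and no p is given. S100a9 outnumbered S100a8 in 156 of the 182 barcodes with 10 or more UMIs. S100a8 made up 36.3%, 40.4%, 37.6% and 48.5% of the summed UMIs of both genes in the neutrophil-like barcodes of DSS-treated wildtype 1, wildtype 2, mutant 1 and mutant 2. In untreated wildtype 1 and 2 it made up 33.9% and 38.8%, and in untreated mutant 1 and 2 48.0% and 46.8%. The share thus lay below an even balance in all 8 libraries, and 3 of the 4 mutant libraries were nearest to it.

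T-cell-like barcodes, the enriched population, carried traces of both genes. In DSS-treated wildtype 1 and 2 and mutant 1 and 2 the level of S100a8 was 0.746, 1.99, 3.87 and 1.34 CPM, and that of S100a9 was 1.26, 2.26, 6.24 and 1.60 CPM. In the untreated libraries S100a8 stood at 0.118, 0, 0.0721 and 0.186 CPM and S100a9 at 0.294, 0, 0 and 0.496, where 0 UMIs allow up to 0.187 CPM in wildtype 2 and 0.216 in mutant 1. The DSS values were 0.503% to 2.71% of the S100a8 level of their whole library and 0.587% to 2.67% of the S100a9 level. Of the 333 T-cell-like DSS barcodes with any UMI of the 2 genes, 309 held exactly 1. Thinned to 1000 UMIs, 0.285% of the T-cell-like DSS barcodes held S100a8 and 0.348% held S100a9, and without thinning 0.436% and 0.558% did, at a median depth of 1866 UMIs. Mostly single molecules in few barcodes thus stood behind the T cell level. At so low a level and depth this would be so whatever their source, which was not tested.

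B-cell-like, fibroblast-like and plasma-cell-like barcodes were set beside this. In B-cell-like barcodes of the DSS libraries, 14 S100a8 and 18 S100a9 UMIs gave 4.52 and 5.81 CPM, and after thinning 0.342% and 0.615% of barcodes held them (0.711% with an exact binomial 95% interval of 0.368 to 1.24, and 1.07% with 0.633 to 1.68, without thinning, at a median depth of 1470.5 UMIs). These levels rest on few libraries: S100a8 had 0 and 5 UMIs in DSS-treated wildtype 1 and 2 and 8 and 1 in DSS-treated mutant 1 and 2, and S100a9 had 1, 0, 16 and 1 in the same order, where 0 UMIs allow up to 6.54 CPM in wildtype 1 and 4.98 CPM in wildtype 2. The mean over the 4 libraries was 3.90 CPM for S100a8, or 2.43 without wildtype 2, and 3.62 CPM for S100a9, or 1.5 without mutant 1. In untreated B-cell-like barcodes there were 1 and 0 UMIs. Fibroblast-like DSS barcodes held S100a8 in 0.585% and S100a9 in 0.154% after thinning, at a greater median depth of 6348 UMIs, and plasma-cell-like ones in 0.171% and 0.0570%. A fibroblast-like cluster described below held 133 of the 337 S100a8 UMIs of its class after DSS. S100a8 made up 88.7% of both genes in it, and the source of these UMIs was not tested. The thinned T cell shares lay below the B-cell-like ones for both genes, which rest on few barcodes, and between the fibroblast-like and plasma-cell-like ones for S100a8. For S100a9 they lay above both of these.

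The subunit balance in T-cell-like barcodes was not told apart from that of the neutrophil-like ones. S100a8 made up 37.2% of both genes in T-cell-like barcodes of DSS-treated wildtype 1 (exact binomial 95% interval 23.0 to 53.3), 46.8% in wildtype 2 (35.5 to 58.4), 38.3% in mutant 1 (31.8 to 45.2) and 45.6% in mutant 2 (33.5 to 58.1). Each interval covers the neutrophil-like value of its own library. Summed over the DSS libraries the share was 41.1% (36.2 to 46.1) in T-cell-like and 42.4% (42.0 to 42.8) in neutrophil-like barcodes. The intervals cover counting error only, and those of single libraries are wide enough to hold a difference. Of 15 other neutrophil genes, 2 appeared in T-cell-like barcodes at a like fraction: the T cell level was 0.00289% of the neutrophil-like level for S100a8, 0.00305% for S100a9, 0.00259% for Retnlg and 0.00318% for Wfdc21. It was lower, 0.00105%, for Stfa2l1, which rests on 1 UMI, and higher, from 0.00959% for G0s2 upward, for the other 12. Several of these 12, such as Srgn and Il1b, are known in other cells too. The 12 also held Slfn4 at 0.0420%, Trem1 at 0.0446%, Cxcr2 at 0.0601% and Csf3r at 0.159%.

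**Figure D4:**
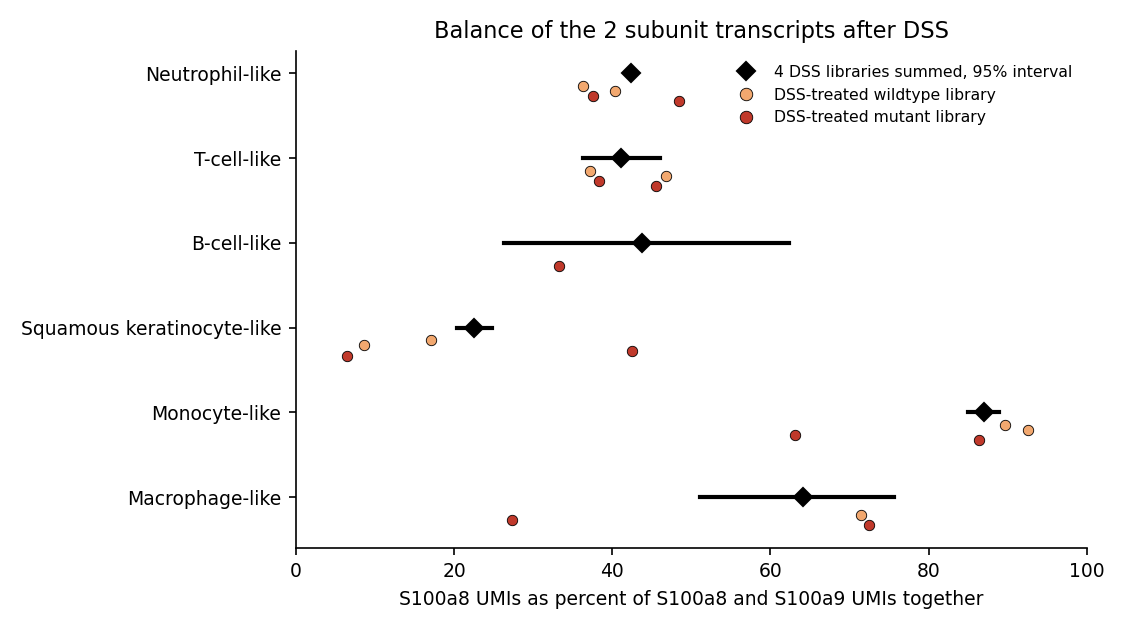
S100a8 UMIs as a percent of the UMIs of S100a8 and S100a9 together, by class of barcodes, as the sum of the 4 DSS libraries (diamonds, with exact binomial 95% intervals) and per library with at least 10 UMIs (circles). T-cell-like barcodes (41.1%) lie near the neutrophil-like value (42.4%), monocyte-like barcodes above it (87.0%) and squamous keratinocyte-like barcodes below it (22.5%).

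Dendritic-like barcodes held almost no UMIs of either gene. In the DSS libraries 851 such barcodes held 3 S100a8 and 6 S100a9 UMIs, or 0.560 and 1.12 CPM. In the untreated libraries 940 held 0 and 1, where 0 UMIs allow up to 0.437 CPM. The thinned share of S100a8 after DSS was 0.119%, below the B-cell-like share, but it rests on at most 3 UMIs. Dendritic cells carry antigen to T cells and could pass the enrichment. Summed over the DSS libraries, these barcodes stood below the T-cell-like level for both genes. A single library held all their S100a9 UMIs after DSS, since the mean over the others was 0 CPM.

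On the authors' list of kept cells the same split was seen. In the DSS libraries 6 listed neutrophil-like barcodes held 1837 S100a8 UMIs, 88.8% of those in listed barcodes, and 1803 S100a9 UMIs, 90.2%. The 12543 listed T-cell-like barcodes held 65 (3.14%) and 90 (4.50%), and 244 listed dendritic-like barcodes held 0 and 2. In the untreated libraries 2 listed neutrophil-like barcodes held 121 S100a8 (90.3%) and 105 S100a9 UMIs (92.1%). A handful of barcodes therefore set the level of both genes in the kept cells. The 6 listed neutrophil-like barcodes of the DSS libraries held 2796 to 11191 UMIs, and the 2 untreated ones 3125 and 5381. Medians of all neutrophil-like barcodes were 1793 UMIs after DSS and 1084 untreated. No doublets were removed, and whether these listed barcodes hold RNA of a second cell was not tested.

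Monocyte-like barcodes carried S100a8 with little S100a9. This cluster was led by Chil3, Retnla and F10. Its S100a8 UMIs numbered 3, 5, 8 and 0 in the untreated libraries and 26, 175, 12 and 827 in DSS-treated wildtype 1 and 2 and mutant 1 and 2. Its S100a9 UMIs numbered 0 in every untreated library and 3, 14, 7 and 131 after DSS. DSS-treated mutant 2 held most of them. S100a8 made up 87.0% of the DSS UMIs of both genes (1040 against 155, interval 85.0 to 88.9), above the neutrophil-like 42.4%. By library its share was 89.7%, 92.6%, 63.2% and 86.3%. Without DSS-treated mutant 2 it made up 89.9% (213 against 24, interval 85.3 to 93.4), while the S100a8 level dropped from 210 to 53.9 CPM.

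A few barcodes made up this monocyte-like signal. With 10 or more UMIs of both genes, 13 barcodes held 84.6% of it, all 13 had more S100a8 than S100a9, and 9 came from DSS-treated mutant 2. In these 13 the neutrophil genes Retnlg, Stfa2l1 and G0s2 had 0 UMIs, Cxcr2 had 1 and Csf3r 5. Summed, however, the fixed neutrophil genes other than Il1b and Srgn, several of which monocytes also express, stood at 3877 CPM in them (245 UMIs, in 13 of 13). The same sum was 704 CPM in the monocyte-like barcodes of all libraries without either calprotectin gene. The part of neutrophil RNA in the 13 barcodes was not tested. Chil3, a chitinase-like gene of inflammatory monocytes, stood at 9747 CPM in them and at 743 CPM in the 1348 monocyte-like DSS barcodes without either calprotectin gene. Of other monocyte genes, in the same order, Ly6c2 stood at 285 and 95.4 CPM, Fn1 at 1472 and 362 and Vcan at 665 and 174. Plac8 and Ccr2 went the other way, at 443 and 992 and at 142 and 245 CPM. C1qa, a complement gene of tissue macrophages, stood at 31.6 and 601 CPM. Wfdc21 was present in 12 of the 13, with 57 UMIs, and 3 of the 13 were among the barcodes of highest doublet score.

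**Figure D5:**
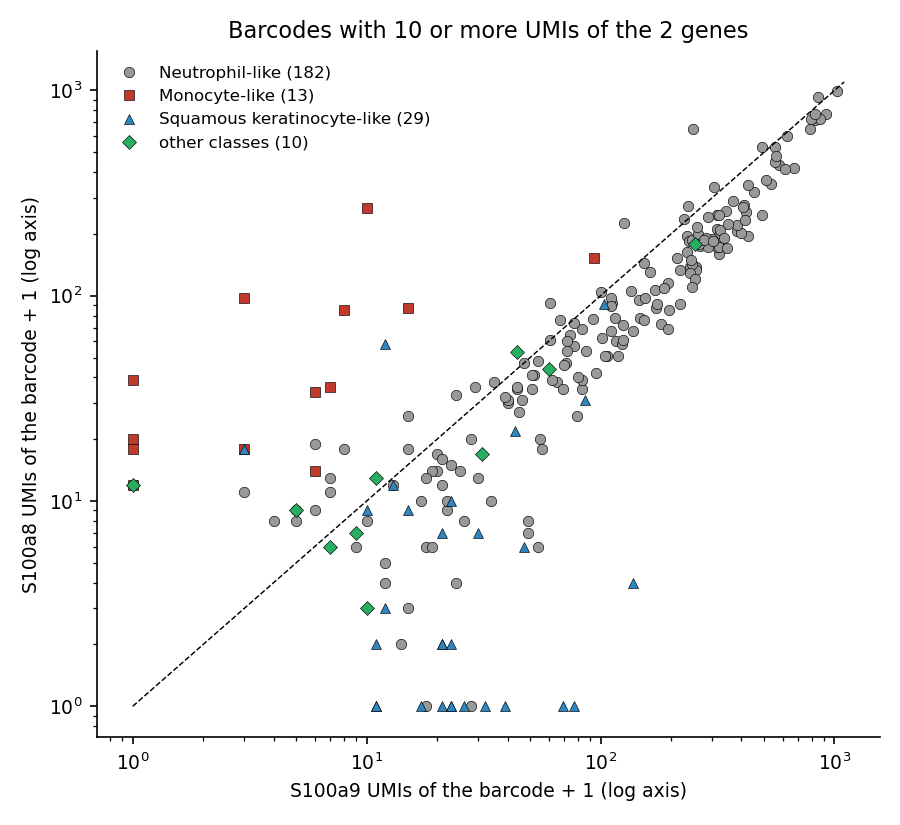
S100a8 against S100a9 UMIs of single barcodes with 10 or more UMIs of both genes, each with 1 added so that 0 can be drawn, on log axes, by class. The 13 monocyte-like barcodes all lie on the S100a8 side of the line of equal counts, and 27 of the 29 squamous keratinocyte-like ones on the S100a9 side.

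Squamous keratinocyte-like barcodes had the opposite balance. This cluster, led by Krt14, Krt6a, Krt5 and Krt13, keratins of stratified epithelium, held 466 barcodes from DSS and 1 from untreated libraries, so a comparison of treatments within it cannot be made. Its S100a9 level was 384, 134, 192 and 163 CPM in DSS-treated wildtype 1 and 2 and mutant 1 and 2, and its S100a8 level 79.0, 12.6, 142 and 11.3 CPM. S100a8 made up 22.5% of both (328 against 1129 UMIs, interval 20.4 to 24.7), but by library 17.1%, 8.61%, 42.4% and 6.45%. DSS-treated mutant 1 stood apart from the other 3 libraries. The 29 barcodes with 10 or more UMIs held 84.3% of the signal and 27 had more S100a9. They were deep, with a median of 30343 UMIs, beside 11957.5 in those with 1 to 9 UMIs of both genes and 5211.5 in those with 0. The part of depth in this split was not tested. In the 29 barcodes the fixed neutrophil genes other than Il1b and Srgn stood at 22.8 CPM in sum and the squamous genes at 35462 CPM.

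Smaller amounts lay in a fibroblast-like cluster and in single barcodes. The fibroblast-like cluster led by Il11, Sfrp2, Cxcl13 and Ereg held 133 S100a8 and 17 S100a9 UMIs after DSS, 88.7% S100a8 (interval 82.5 to 93.3), spread over 85 of 1560 barcodes. Its S100a8 level in the 4 DSS libraries was 10.3, 10.5, 13.2 and 8.86 CPM. The first value, of wildtype 1, rests on 3 UMIs in 31 barcodes. The last, of mutant 2, was 6.96 CPM without a barcode of 11 S100a8 UMIs that was among those of highest doublet score. In the untreated libraries it held 21 S100a8 and 36 S100a9 UMIs in wildtype 2, all in barcodes with 10 or more, 3 S100a8 UMIs in mutant 1 and 0 in the others. Of all fibroblast-like barcodes only 4 held 10 or more UMIs of both genes, with 210 S100a8 and 288 S100a9 UMIs between them. In T-cell-like barcodes 2 did so, with 8 and 17 UMIs, both from DSS-treated mutant 1. Macrophage-like DSS barcodes held 41 S100a8 and 23 S100a9 UMIs. Outside the neutrophil-like cluster as a whole, S100a8 stood at 0.861 ± 0.860 CPM (SD, n = 4) untreated and 11.5 ± 7.58 after DSS, and S100a9 at 0.621 ± 0.734 and 11.6 ± 3.52.

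The genes whose pattern was most like each member were sought over the 28 clusters of all barcodes, among 7052 genes that reached 50 CPM in at least 1 cluster. Likeness was the Pearson correlation of log2(CPM + 1) over clusters, given as a description. S100a8 was most like S100a9 (0.948), then Wfdc21 (0.923), Stfa1 (0.922), Rab44 (0.904) and Mmp8 (0.904), the last a collagenase of neutrophil granules. S100a9 was most like S100a8 (0.948), then Il1f9 (0.942), an interleukin-1 family cytokine also made by keratinocytes, Stfa3 (0.935), BC100530 (0.931) and Olfm4 (0.914). The Stfa genes and BC100530 belong to the stefin A family of near-identical copies, whose counts may be split between copies and are uncertain.

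Mutant and wildtype mice were compared for both genes in each treatment, which asks whether the changed RORγt altered calprotectin transcripts. Neither gene passed the test in any comparison. Over all barcodes the log2 difference, mutant over wildtype, was 0.04 ± 0.68 (SE) for S100a8 and -0.37 ± 0.59 for S100a9 in untreated mice, and 0.83 ± 0.64 and 0.50 ± 0.56 after DSS, each with an adjusted p of 1 in edgeR's quasi-likelihood test. The difference of the DSS effect between genotypes was 0.78 ± 0.93 and 0.87 ± 0.81, with an edgeR adjusted p of 0.9999 for both. Without the neutrophil-like barcodes, where few UMIs remain, the difference of effects was 3.01 and 2.51 and the difference in untreated mice -2.15 and -2.56, none past the threshold. In listed CD4 T cells, the listed barcodes of T-cell-like clusters, the values after DSS were 1.08 ± 0.70 and 0.92 ± 0.77, with an edgeR adjusted p of 0.9997. Their DSS libraries held 7, 12, 28 and 18 S100a8 UMIs and 17, 13, 42 and 18 S100a9 UMIs, and the untreated ones 4 or fewer, so no fold is given there. In neutrophil-like barcodes after DSS the values were 0.32 ± 0.53 and -0.05 ± 0.43, with an edgeR adjusted p of 0.999. Standard errors of this size leave room for differences of more than 1 log2 unit in either direction for several of these values.

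The share of genes called in these genotype comparisons was 0% by edgeR. Over all barcodes 0 of 16565 genes were called without DSS (492 at an unadjusted p under 0.05, and 18 called by DESeq2), 0 after DSS (168 and 3) and 0 for the difference of the DSS effect (188 and 7). In neutrophil-like barcodes 0 of 1245 were called, with 10 at an unadjusted p under 0.05. Without DSS-treated mutant 1, S100a8 in neutrophil-like barcodes was higher in the mutant by 0.89 on the log2 scale, with an edgeR adjusted p of 0.000702. That fit has a lone mutant library, assumed to vary like the others, and this was the only one of 138 alternative values of the members that passed.

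Over all barcodes 2 of 9 receptor and signalling genes of calprotectin rose and 1 fell with DSS, against 12.2% of all genes called higher and 11.1% lower by edgeR. Ager, which encodes RAGE, rose from 0.515 ± 0.109 to 1.37 ± 0.250 CPM (log2 1.43 ± 0.26 SE, edgeR adjusted p 0.0138). Cd14, the co-receptor of TLR4, rose by 0.32 ± 0.09 (edgeR adjusted p 0.036), a call that was lost in all 8 fits with 1 library left out (0.29 to 0.37). Cd36, a scavenger receptor, fell from 36.2 to 17.1 CPM (log2 -1.10 ± 0.23, edgeR adjusted p 0.0184). Ager and Cd36 were each called in 6 of these 8 fits. Tlr4 itself stood at 4.74 ± 1.26 and 4.21 ± 0.770 CPM (adjusted p 0.652). The list's median log2 difference was 0.17 and that of all genes -0.02. Of the 6 NADPH oxidase genes 0 passed the test, and their median was -0.28.

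Of the transcription factors known for myeloid S100 genes, 3 of 9 rose and 3 fell, against 12.2% and 11.1% of all genes. Klf5, an epithelial factor, rose from 5.03 to 22.1 CPM (log2 2.23 ± 0.47, edgeR adjusted p 0.0187), Cebpb by 0.52 ± 0.15 (0.0475) and Stat3 by 0.47 ± 0.13 (0.0406). Atf3 fell from 339 to 96.2 CPM (log2 -1.79 ± 0.19, edgeR adjusted p 0.00462), Irf7 by 0.68 on the log2 scale (0.0407) and Spi1 by 0.50 (0.0114). With 1 library left out Cebpb was called in 1 of 8 fits, Stat3 and Irf7 in 2 of 8 each, Klf5 in 5, Spi1 in 6 and Atf3 in all 8. Cebpb was not called without the neutrophil-like barcodes, with a log2 difference of 0.51 (edgeR adjusted p 0.0515).

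Most other metal-withholding and antimicrobial genes rose with DSS. Of 11 tested, 7 rose and 0 fell, with a median log2 difference of 1.65, where 12.2% of all genes rose. With 1 library left out 3 to 7 rose: 5 without DSS-treated mutant 2 or DSS-treated wildtype 2, 4 without untreated mutant 1 or untreated wildtype 1, and 3 without untreated wildtype 2. Lcn2, which captures bacterial siderophores, rose from 19.0 to 60.1 CPM (log2 1.65 ± 0.24, edgeR adjusted p 0.009). Ltf, the iron-binding lactoferrin, rose from 0.269 to 11.8 CPM (5.40 ± 0.56, 0.00462), and Hp, the haemoglobin-binding haptoglobin, from 6.59 to 48.2 (2.81 ± 0.25, 0.00356). Slpi and Wfdc21 rose too. Slpi and Camp were called in only 2 of 8 fits with 1 library left out and Ngp in 5. Camp and Ngp are among the 7 but had only 3 and 4 UMIs in all untreated libraries, so no fold is given. They passed the filter on low counts through the DSS libraries and could only have been called higher. The lectins Reg3b and Reg3g of the gut epithelium did not pass. Without the neutrophil-like barcodes 9 of the list passed the filter on low counts, Camp and Ngp no longer among them, and 5 rose and 0 fell.

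Of 14 genes tested that draw neutrophils into tissue or keep them alive, 5 rose and 0 fell, with a median log2 difference of 0.50, where 12.2% of all genes rose and 11.1% fell. Cxcl5, a ligand of CXCR2, rose from 13.8 to 147 CPM (log2 3.43 ± 0.43, edgeR adjusted p 0.00692), Csf3, which encodes G-CSF, from 2.86 to 27.2 (3.37 ± 0.51, 0.00991), and Il6 from 11.3 to 38.4 (1.79 ± 0.28, 0.0104). Cxcr4, the receptor of CXCL12, rose from 67.5 to 134 CPM (1.01 ± 0.14, 0.00849). The receptor Cxcr2 rose from 0.196 to 1.54 CPM (2.97 ± 0.35, 0.00606), but without the neutrophil-like barcodes its difference was 1.07 (adjusted p 0.0985). Cxcl1, Cxcl2, Il17a and Il17f did not pass, with log2 differences of 0.09, -0.06, 0.61 and 0.10.

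Other S100 genes were called about as often as all genes, of which 23.3% passed in either direction. Of 11 tested, 2 rose and 1 fell. S100a14, an epithelial member, rose from 0.502 ± 0.56 to 33.1 ± 14 CPM (log2 6.25 ± 0.59, edgeR adjusted p 0.00377), S100a4 rose by 0.54 ± 0.14 (0.0309), and S100a13 fell by 0.29 (0.0459). With 1 library left out S100a14 was called in all 8 fits, S100a4 in 2 and S100a13 in 0. The abundant S100a6 stood at 1167 and 1105 CPM over all barcodes (adjusted p 0.872), while in neutrophil-like barcodes alone it stood at 1234 and 9219 CPM. Markers of other cells were also called, beside 12.2% of all genes called higher and 11.1% lower. Of 15 neutrophil genes 9 rose and 0 fell, and of 15 squamous keratinocyte genes 14 rose and 0 fell. Without untreated wildtype 2 the counts that rose were 5 and 9. Without the neutrophil-like barcodes 6 of 14 neutrophil genes rose and 1 fell. Lcn2, Wfdc21 and Cxcr2 of the neutrophil genes were already counted in the lists above. Nearly all squamous keratinocyte-like barcodes came from DSS libraries. Squamous genes with few untreated UMIs passed the filter on low counts through those libraries and could hardly have been called lower. Their number was not counted. The part of neutrophil-like and squamous cells in the changes of single genes was not tested beyond the counts without neutrophil-like barcodes.

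Leaving out untreated wildtype 2, whose weight on all genes is given above, lowered each count: 0 receptor genes, 3 antimicrobial, 3 recruitment and 1 other S100 gene then rose, and 1 transcription factor fell. In listed CD4 T cells 9.13% of genes were called higher and 9.16% lower after DSS. There 3 of 8 receptor genes tested rose (Ager, Cd14 and Myd88), 1 of 6 NADPH oxidase genes rose (Cybb), and 3 of 6 other S100 genes fell (S100a10, S100a11 and S100a13). Of 7 transcription factors 1 rose (Cebpb) and 2 fell (Atf3 and Irf7). Higher calls also came from 2 of 10 recruitment genes (Cxcr4 and Cxcl1), 1 of 2 antimicrobial genes (Slc11a1) and 1 of 6 neutrophil genes (Clec4d). Of these 4 genes, Cxcl1, Slc11a1 and Clec4d were each called in 2 of 8 fits with 1 library left out, and Cxcr4 in 7. With 1 library left out, 4 of the 8 fits called 0 receptor genes, 5 called 0 NADPH oxidase genes and 5 called 1 other S100 gene, and DESeq2 called 1 receptor gene. Cd14 and Cybb are myeloid genes, and their levels in these barcodes were 18.3 and 14.2 CPM after DSS. The keratins Krt5 and Krt14, markers of squamous cells, were called higher in the same barcodes, from 0 to 39 and from 1 to 70 UMIs. At 0 and 1 UMIs untreated, these keratins passed the filter on low counts through the DSS libraries alone. They could therefore not have been called lower. Lgals7 of the same marker list fell from 42.1 to 22.5 CPM, with 4 of the list tested. Each of these 3 calls held in only 3 of 8 fits that left out 1 library, the other 5 fits called 0 genes of the list, and DESeq2 called Krt14 higher, did not call Lgals7 and gave no adjusted p for Krt5. The part of RNA from other cells in these calls was not tested.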

How the data were processed

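Colonic lamina propria cells, enriched for CD4+ T cells, were profiled as 8 droplet 3′ libraries. The authors deposited raw UMI counts per gene and barcode; the submitters' processing notes name Cell Ranger 3.1.0, Seurat 4.0.1 and mm10. In 7 tables rows carried numbers, and names came from the deposited list of row names, checked against the 1 table with gene identifiers, of which 98.5% matched the reference symbol. The members and lists were chosen with earlier results of these data known. Barcodes were clustered here (scanpy 1.11.5, 1776 variable genes without the members, 30 components, 15 neighbours, Leiden resolution 1) and named from fixed markers, because the deposited list of kept cells gives no types. Scrublet marked 2 barcodes as doublets, so none were removed. UMIs were summed per library and tested with edgeR 4.0.16 (quasi-likelihood, TMM, filterByExpr, 4 groups in 1 fit, Benjamini-Hochberg, threshold 0.05) in R 4.3.3; neutrophil-like sums used the 4 DSS libraries. DESeq2 1.42.0, other scaling, filters, depth and single libraries left out were alternatives. The script was tested on simulated counts. Standard errors are the log2 difference over the square root of F. The design text states independent biological replicates, and p-values measure the spread between these. Genes named are the members, the 5 most alike to each and up to 5 called per list and direction; genes of neutrophil-like barcodes were chosen after their values were seen. Limits given beside 0 UMIs are what 3 counts allow. Library depth was 34497509 to 46960005 UMIs.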

Additional observations from a re-analysis of the deposited data

How the results depend on the processing

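No paired analysis was run because no label pairs the libraries. Each title carries a number of its own, some neighbouring between genotypes, and 1 and 2 only name the libraries. Doublets marked by Scrublet were too few for that alternative, which was not run; leaving out the barcodes of highest score (8.45% to 12.9% per library), the neutrophil-like barcodes or those with 10 or more member UMIs was chosen after seeing the data. No cluster was monocyte-like at resolution 0.5, so that value is missing. With 1 library left out, mean DSS levels in monocyte-like barcodes ran from 53.2 to 326 CPM (S100a8) and 5.87 to 48.5 (S100a9), dendritic-like S100a9 from 0 to 1.46, and the mean S100a8 share in squamous keratinocyte-like barcodes from 10.7% to 22.7%; the neutrophil-like levels after DSS ran from 55896 to 76277 and 90274 to 103443 CPM. DSS against untreated gave 3691 to 4344 calls over all barcodes under the other settings, beside 3860, and 238 to 3617 with 1 library left out (238 without untreated wildtype 2, 975 without DSS-treated mutant 2, 1492 without untreated mutant 1, 2149 without untreated wildtype 1, 2320 without DSS-treated mutant 1). Its count in listed CD4 T cells, 2017, was 1277 with DESeq2 and 249 to 2091 with 1 library left out. Mutant against wildtype gave 0 calls by edgeR throughout the main comparisons. Over all barcodes it gave in untreated mice 18 with DESeq2, 1 without the low-count filter, 2 when the fit held just those 4 libraries and 0 to 11 with 1 left out; after DSS 3 with DESeq2, 1 without the filter and 0 to 1; for the difference of effects 7 and 2. In listed CD4 T cells it gave untreated 18 with DESeq2, 125 without the filter and 0 to 6 with 1 left out; after DSS 29 without the filter and 0 to 4; for the difference 68 without the filter. In neutrophil-like barcodes it gave 4 without the filter and 1 to 21 with 1 left out. The cause was not tested. Members changed sign, none past the threshold, for S100a8 in untreated mice without neutrophil-like barcodes (-2.15), S100a9 after DSS without them (-0.057), and S100a9 in neutrophil-like barcodes with DESeq2 (0.011), without the filter (0.082) and without high doublet scores (0.046). With 1 library left out the log2 differences over all barcodes were -0.84 to 0.94 (S100a8) and -1.41 to 0.34 (S100a9) untreated and -0.12 to 1.67 for the difference of effects (S100a8), S100a9 after DSS in listed CD4 T cells was -0.51 to 1.76, and in neutrophil-like barcodes S100a8 was -0.45 to 0.89 and S100a9 -0.39 to 0.30.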
